A study of Mus musculus with 12 samples.

Results

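The 10 genes described here encode the 4 Notch receptors of the mouse (Notch1, Notch2, Notch3 and Notch4), 4 of their ligands (Jag1, Jag2, Dll1 and Dll4) and a pair of transcription factors switched on by Notch signalling (Hes1 and Hey1). They were chosen by name, as the genes to which at least 1 probe set of the array was annotated with that symbol alone, and they are 10 of the 18194 genes that the array names in this way. A probe set is a group of short array probes that read 1 transcript together, and 19 probe sets read the 10 genes. All 10 passed the filter on low values, which asked for an average signal of 50 or more in any zone, as did 11807 genes in all, and none passed it through zone III alone. Notch4 and Dll4 came near to that, with means of 50.2 and 52.5 in zone I and of 19.5 and 44.8 in zone II.

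Notch receptors are cell surface proteins that are activated by ligands of the Jagged and Delta-like families on a neighbouring cell. Ligand binding leads to cleavage of the receptor, and its intracellular part enters the nucleus and turns the DNA-binding protein RBPJ into an activator of Hes and Hey genes, which encode transcriptional repressors. In the skeleton the pathway is known for its roles in chondrocyte maturation, in the osteoblast and osteoclast lineages and in the growth of blood vessels, where Notch1, Notch4, Dll4 and Hey1 are found in endothelial cells and Notch3 in the mural cells around them.

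Total RNA came from tibiae of CD1 mouse embryos at embryonic day 15.5, which received no treatment, and the labels name no engineered allele. The bones were cut by hand into 3 segments, zone I at the ends with resting and proliferating chondrocytes, zone II with mostly prehypertrophic and hypertrophic chondrocytes, and zone III with the oldest hypertrophic chondrocytes and the bone that had mineralized. RNA of a zone was pooled over the embryos of 1 litter, 4 litters were used, and each zone was hybridized to 4 Affymetrix MOE 430 2.0 arrays with the letters A to D, so that n = 4 counts litters. The zones were cut by morphology and not sorted by cell type, and in such bulk RNA fewer cells of a type and less RNA per cell cannot be told apart.

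The labelled tissue was checked against its markers. All 9 early chondrocyte markers passed the filter. Among them Col2a1, the main cartilage collagen, read 3701 ± 721, 4731 ± 397 and 2064 ± 358 in zones I, II and III (SD over 4 arrays). Col10a1, the collagen of hypertrophic cartilage, read 5.81 ± 0.852, 2560 ± 227 and 2351 ± 362. By qRT-PCR the authors found less Col2a1 in zone II than in zone I, unlike on their arrays. For Col10a1 they reported a smaller fold change by qRT-PCR than by array. The deposited values are signal intensities scaled by the authors to the same trimmed mean of 150.0 on each array, with array medians of 32.4 to 43.3, and 4 arrays a zone set the precision of each mean.

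Sequence is available for the stretch before the start of 8 of the 10 genes in RefSeq (build GRCm38.p6), as 9 windows of 250 bases, since Dll1 has more than 1 start. Hes1 and Hey1 have no window in that table. The windows of Notch1, Notch3, Notch4 and Jag1 are shown because these genes fell from zone I to II and rose from II to III with no overlap between arrays of different zones, and because some of them hold the GC box and others lack it. Each sequence runs 5′ to 3′ towards the start of the gene. Capitals mark the GC box GGGCGG or its reverse complement CCGCCC, a motif bound by Sp transcription factors.
Notch1 (chr2:26503823-26504072, minus strand): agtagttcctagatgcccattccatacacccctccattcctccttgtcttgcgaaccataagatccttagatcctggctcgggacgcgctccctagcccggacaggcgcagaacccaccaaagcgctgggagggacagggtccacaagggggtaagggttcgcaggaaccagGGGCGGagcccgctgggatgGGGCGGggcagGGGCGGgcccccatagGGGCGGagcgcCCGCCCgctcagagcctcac
Notch3 (chr17:32166891-32167140, minus strand): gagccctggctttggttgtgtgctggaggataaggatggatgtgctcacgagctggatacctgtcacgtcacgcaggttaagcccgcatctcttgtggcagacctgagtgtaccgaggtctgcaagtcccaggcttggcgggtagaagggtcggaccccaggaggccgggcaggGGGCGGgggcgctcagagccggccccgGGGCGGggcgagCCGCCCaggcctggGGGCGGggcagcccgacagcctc
Notch4 (chr17:34564045-34564294, plus strand): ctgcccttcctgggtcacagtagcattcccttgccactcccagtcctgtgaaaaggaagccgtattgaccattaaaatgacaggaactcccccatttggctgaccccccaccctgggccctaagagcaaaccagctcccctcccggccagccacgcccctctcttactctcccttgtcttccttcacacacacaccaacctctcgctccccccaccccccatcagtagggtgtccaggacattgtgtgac
Jag1 (chr2:137116521-137116770, minus strand): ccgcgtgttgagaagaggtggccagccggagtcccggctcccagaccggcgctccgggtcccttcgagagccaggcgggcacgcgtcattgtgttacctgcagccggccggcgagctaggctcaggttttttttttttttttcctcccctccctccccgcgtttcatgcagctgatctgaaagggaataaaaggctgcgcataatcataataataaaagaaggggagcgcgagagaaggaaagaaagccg

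Both strands were searched for 3 motifs, and matches may overlap each other. The GC box was found in 5 of the 9 windows, with 5 matches each for Notch1, Notch2 and Jag2, 4 for Notch3 and 2 for Dll4, and it lies in 32.7% of all 32851 windows of this length. The windows of Notch4, Jag1 and Dll1 hold none. The core of the RBPJ site, TGGGAA, is in 0 of the 9 windows against 21.6% of all windows, and the TATA box TATAAA is in 0 of the 9 against 12.4%. All 9 windows belong to receptor and ligand genes, so the target genes Hes1 and Hey1 were not searched. A match of letters is a description and not a bound site, and a missing match says only that these letters are not in these windows.

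Each of the 10 genes had more signal in zone III than in zone II, and most had a lower signal in zone II than in zone I. From zone I to zone II, 7 fell, none rose and 3 did not pass the test (limma, adjusted p under 0.05), with a median log2 difference of −0.78 against −0.09 over all 11807 genes. Of all genes, 25.4% fell and 1893 rose at this step. All 10 then rose from zone II to zone III, with a median log2 difference of 2.38 against 0.08 over all genes, of which 30.8% rose and 22.7% fell. Zone III exceeded zone I for 8 genes, with none lower and 2 not passing the test, at a median of 1.31 against −0.01 over all genes, of which 21.6% rose and 21.7% fell.

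The arrays gave the same picture one by one. For all 10 genes every zone III array lay above every zone II array, which held for 30.0% of all genes. Each zone III array also lay above each zone I array for 9 of the 10, with Notch2 as the exception (22.8% of all genes). Every zone II array lay below every zone I array for 6 of the 10, against 22.5% of all genes.

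**Figure D1:**
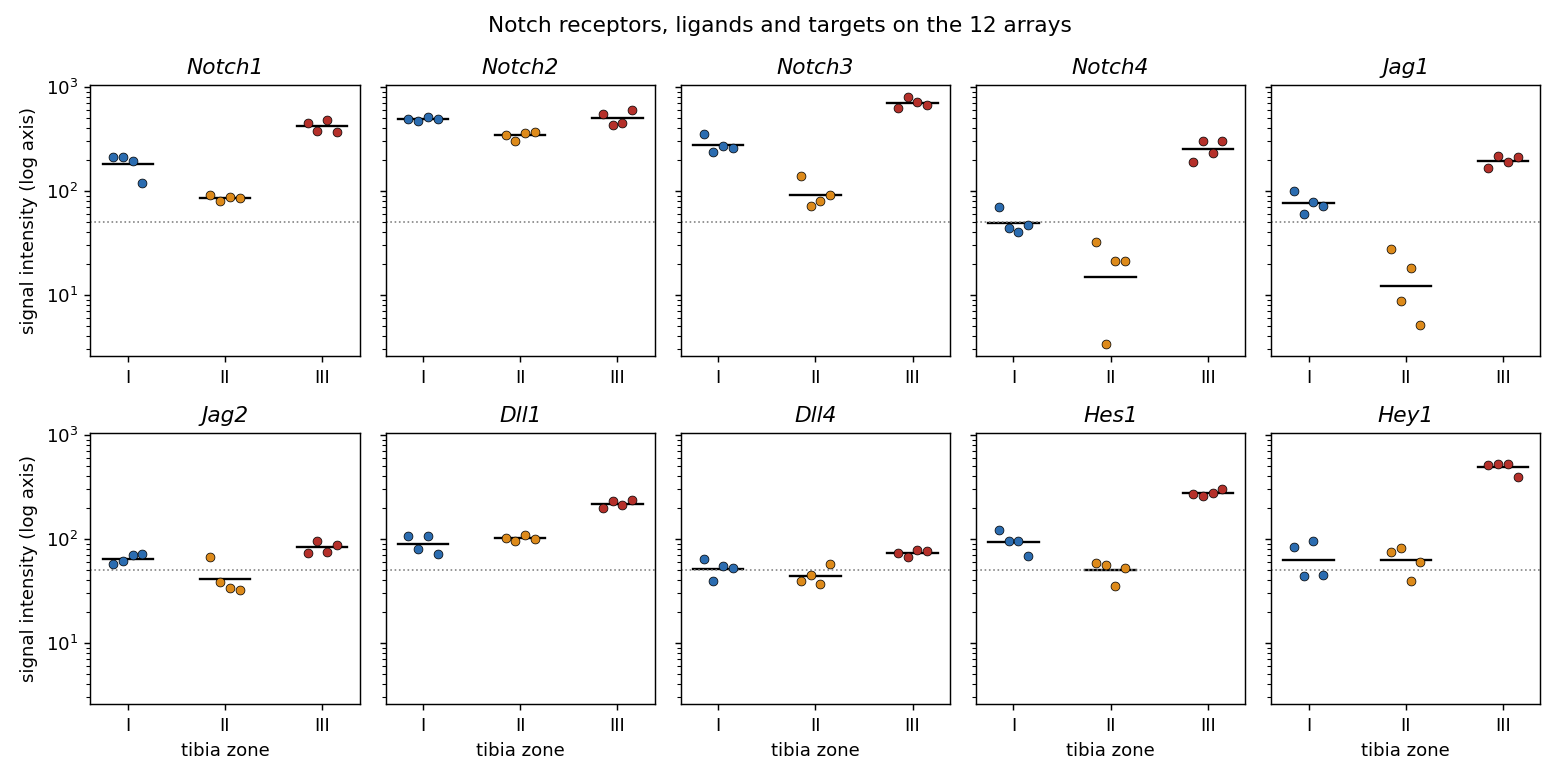
Signal intensity on a log axis for the 10 genes, 1 panel per gene, in which dots are single arrays, coloured blue for zone I, orange for II and red for III, with a short line at the geometric mean of a zone and a dotted line at a signal of 50. In each panel the 4 zone III dots lie above the 4 zone II dots, and the widest gaps are those of Notch4 and Jag1, whose zone II dots lie under 50.

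The receptors were led in range by Notch4 and Notch3, while Notch2 moved least. Notch1 is the receptor that acts most widely in development. It read 213, 213, 196 and 119 on arrays A to D of zone I, 92.2, 80.5, 88.0 and 85.5 in zone II, and 451, 377, 485 and 370 in zone III. The 3 zones did not overlap, with zone II lowest and zone III highest, and array D of zone I was the low one of its group. The means were 185 ± 45.0, 86.6 ± 4.86 and 421 ± 56.4 (SD, n = 4 arrays). Notch1 fell by 1.06 ± 0.18 (SE) on the log2 scale from zone I to II (adjusted p = 6.3e-04, limma), rose 4.83-fold from zone II to III (adjusted p = 7.2e-07) and was 2.32-fold higher in zone III than in zone I (adjusted p = 1.8e-04). A second probe set of Notch1 gave −0.33 from zone I to II and did not pass (adjusted p = 0.727, limma), rose by 1.79 from II to III (adjusted p = 0.0355) and gave 1.46 between I and III (adjusted p = 0.0923).

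Notch2 is the receptor best known in osteoclasts and in inherited bone loss. Its signals were 495, 468, 517 and 490 in zone I, 349, 302, 360 and 370 in zone II, and 554, 430, 453 and 597 in zone III. Zone II lay below both other zones on every array, while the arrays of zones I and III overlapped. Notch2 fell by 0.52 ± 0.12 (SE) on the log2 scale from zone I to II (adjusted p = 0.00618, limma) and rose 1.46-fold from II to III (adjusted p = 0.00281). The difference between zones III and I was 0.03 with a 95% interval of −0.24 to 0.30 (adjusted p = 0.858, limma), so that neighbouring levels in zones I and III did not differ beyond their spread. The rise from zone II to III did not pass with the arrays centred on their medians (0.31, limma adjusted p = 0.0544), and the fall from I to II was −0.33 in that setting and −0.82 with ribosomal protein genes as the centre. It also rests on 1 of the 2 probe sets, as the other read 77.0 ± 22.6, 90.4 ± 18.1 and 71.2 ± 23.4 and gave −0.39 from II to III (adjusted p = 0.273, limma).

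Notch3, the receptor of mural cells, read 357, 237, 273 and 257 in zone I, 138, 71.1, 80.1 and 91.3 in zone II, and 626, 798, 719 and 679 in zone III. The zones were fully separate, although array A stood highest in both zone I and zone II. Notch3 fell 3.02-fold from zone I to II (adjusted p = 5.7e-05, limma) and rose 7.64-fold from II to III, a log2 difference of 2.93 ± 0.20 (adjusted p = 2.0e-07). Zone III was 2.53-fold above zone I (adjusted p = 1.6e-04, limma). The other probe set stayed under 50 in every zone mean, with 17.3 ± 4.70, 15.5 ± 2.73 and 33.1 ± 6.58, and was not tested.

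Notch4 is a receptor found chiefly in endothelial cells. Its arrays read 70.0, 43.6, 40.1 and 47.2 in zone I, 32.5, 3.38, 21.2 and 21.1 in zone II, and 191, 304, 231 and 303 in zone III. The zones did not overlap, and the zone II arrays lay under 50 with array B far below the rest. Notch4 rose 16.9-fold from zone II to III (adjusted p = 5.2e-05, limma) and was 5.14-fold higher in zone III than in zone I (adjusted p = 0.00405). Because zone II is so dim this fold depends on the background, and the log2 difference of 4.08 ± 0.54 became 2.99 with 16 added to every signal. The fall from zone I to II was −1.72 ± 0.54 on the log2 scale (adjusted p = 0.0257, limma), and −1.01 without array B of zone II (adjusted p = 0.00786). This fall did not pass with the fluidics run as a block (−1.54, limma adjusted p = 0.0536) or without array A of zone I (−1.55, adjusted p = 0.0669). Both other Notch4 probe sets had zone means under 50, of at most 32.6 and 14.8.

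Among the ligands, Jag1 had the widest range, and neither Delta-like gene passed the test from zone I to II. Jag1 encodes Jagged 1, a ligand of endothelial, mural and osteoblast lineage cells. It read 100, 60.0, 79.0 and 71.5 in zone I, 27.5, 8.72, 18.0 and 5.12 in zone II, and 168, 216, 189 and 212 in zone III. No zone overlapped another, and zone II lay under 50 throughout. Jag1 fell 6.26-fold from zone I to II (adjusted p = 3.0e-04, limma), rose by 4.00 ± 0.41 on the log2 scale from II to III (adjusted p = 5.3e-06) and was 2.56-fold higher in zone III than in zone I (adjusted p = 0.0181). With 16 added to every signal the log2 differences of −2.65 and 4.00 became −1.64 and 2.83. One other probe set ran alike at lower signal (15.6 ± 7.47, 4.59 ± 4.46 and 39.2 ± 5.65), and another was flatter at 35.8 ± 13.3, 23.7 ± 3.91 and 32.6 ± 6.31. On the median of the 3 probe sets the difference between zones I and III was 0.23 (adjusted p = 0.727, limma).

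Jag2, the other Jagged ligand, gave 57.1, 61.8, 69.8 and 71.2 in zone I, 66.9, 38.6, 34.0 and 32.6 in zone II, and 73.8, 96.5, 75.6 and 88.3 in zone III. Array A of zone II read like zone I, and the other zone II arrays lay lower. Jag2 rose 2.02-fold from zone II to III (adjusted p = 0.00128, limma) and fell 1.57-fold from I to II (adjusted p = 0.0245). The fall was lost in 10 alternatives, such as median centring (−0.47, limma adjusted p = 0.0967) and the fits without array C or D of zone I or array B, C or D of zone II, and without array A of zone II it was −0.89 (adjusted p = 4.4e-04). Between zones I and III the difference was 0.36 with an interval of −0.08 to 0.81 (adjusted p = 0.187, limma), although each zone III array lay above each zone I array, and without array A of zone II it passed (0.36, adjusted p = 0.0404).

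Dll1 encodes Delta-like 1. Its signals were 106, 81.0, 107 and 71.7 in zone I, 103, 95.0, 109 and 99.3 in zone II, and 198, 233, 211 and 238 in zone III. Zones I and II overlapped, and zone III stood above both. Dll1 rose 2.16-fold from zone II to III (adjusted p = 3.4e-05, limma) and was 2.44-fold higher in zone III than in zone I (adjusted p = 1.5e-05). From zone I to II the difference was 0.18 with an interval of −0.13 to 0.48 (adjusted p = 0.360, limma), and −0.13 when ribosomal protein genes were the centre.

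Dll4, the Delta-like ligand of sprouting vessels, read 63.9, 39.2, 54.8 and 52.2 in zone I, 39.4, 44.8, 37.3 and 57.7 in zone II, and 73.4, 66.6, 77.7 and 76.6 in zone III. Zone III was highest on every array, and zones I and II overlapped. The rise from zone II to III was 1.66-fold (adjusted p = 0.00302, limma). Between zones I and III the difference of 0.51 ± 0.17 (adjusted p = 0.0304, limma) was lost in 9 alternatives, among them blocking on the fluidics run (0.45, adjusted p = 0.0584) and the fits without array B or D of zone I or array A, C or D of zone III (0.37 to 0.51, adjusted p = 0.0559 to 0.0825). At 1.42-fold this difference also lay under the alternative threshold of 1.5-fold. The rise from zone II to III was 0.48 with quantile normalization and 1.16 with ribosomal centring, against 0.73. The difference from zone I to II was −0.23 with an interval of −0.59 to 0.14 (adjusted p = 0.317, limma), and it passed as a fall of −0.53 with ribosomal centring (adjusted p = 0.0222).

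Both target genes stood highest in zone III, and Hes1 but not Hey1 passed the test as a fall from zone I to II, a contrast between the genes that was not itself tested. Hes1, a repressor switched on by Notch in many tissues and by other signals too, read 123, 96.3, 94.9 and 69.0 in zone I, 58.8, 55.7, 35.4 and 53.1 in zone II, and 270, 262, 280 and 302 in zone III. Its zones did not overlap, in the order II, I, III. Hes1 fell 1.88-fold from zone I to II (adjusted p = 0.00240, limma), rose 5.58-fold from II to III (adjusted p = 5.2e-07) and was 2.96-fold higher in zone III than in zone I (adjusted p = 3.3e-05).

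Hey1 is a target gene of endothelial and bone-forming cells. It gave 83.8, 44.3, 95.2 and 44.7 in zone I, 75.6, 82.8, 39.8 and 60.1 in zone II, and 521, 522, 533 and 394 in zone III. The arrays of zones I and II overlapped widely, and the lowest zone III array, D, was still above them all. Hey1 rose 7.86-fold from zone II to III (adjusted p = 3.4e-06, limma) and was 7.75-fold higher in zone III than in zone I (adjusted p = 5.1e-06). From zone I to II the difference was −0.02 with an interval of −0.64 to 0.60 (adjusted p = 0.965, limma), a sign that turned with quantile normalization (0.14) and median centring (0.16).

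**Figure D2:**
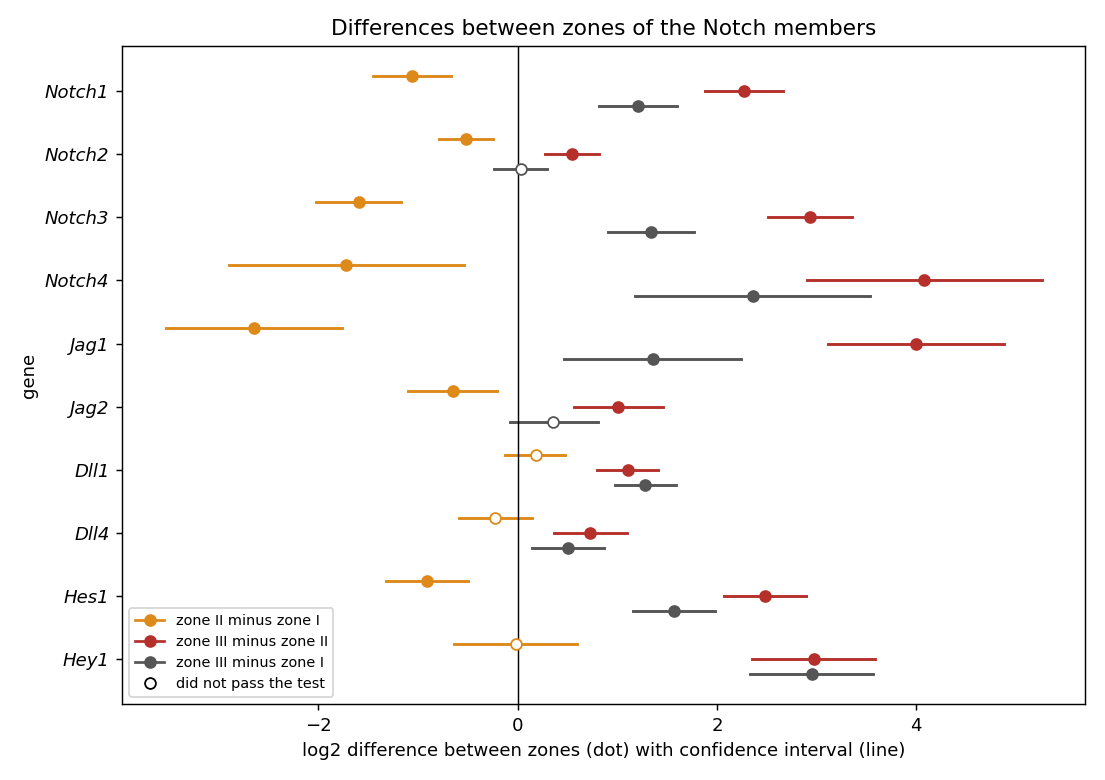
Log2 differences between zones for the 10 genes (dots) with their 95% intervals from limma (lines), for zone II minus I (orange), III minus II (red) and III minus I (grey), with open dots where the test was not passed. All red dots lie to the right of 0, from 0.55 for Notch2 to 4.08 for Notch4, whereas the orange dots of Dll1, Dll4 and Hey1 have intervals that include 0.

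The probe set with the highest mean stood for each gene, and 7 of the 10 genes have others. Of these 9 other probe sets 2 passed the filter, and 7 were dimmer than a mean of 50 in all zones. In signs alone, 7 of the 9 were higher in zone III than in zone II and 8 were lower in zone II than in zone I. On the median of the probe sets of a gene, 3 of the 10 genes fell from zone I to II, 9 rose from II to III and 6 rose between I and III. The calls lost there were the falls of Notch1 (−0.70), Notch2 (−0.13), Notch4 (−0.59) and Jag2 (−0.53), the rise of Notch2 from II to III (0.08), and the differences between I and III of Notch4 (0.28), Jag1 (0.23) and Dll4 (0.55), while that of Jag2 passed (0.92). The fall of Notch3 held at −0.86 against −1.59.

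**Figure D3:**
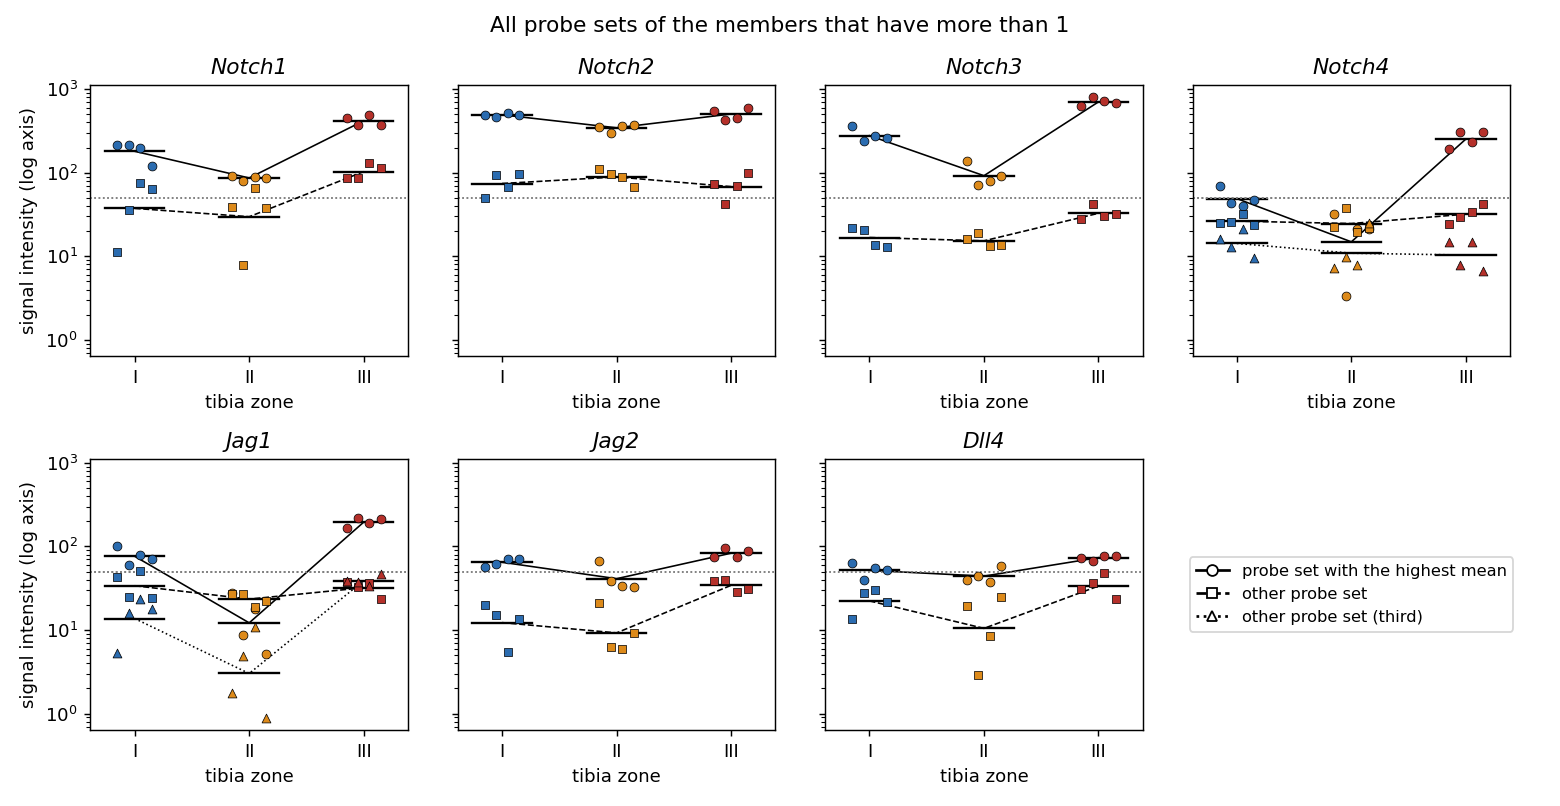
Signal intensity on a log axis by zone for all probe sets of the 7 genes with more than 1, with a dot per array, short lines at geometric means and a dotted line at 50. Circles are the probe set that stands for the gene, squares and triangles the others, most of which lie under 50, and the lines of the 2 Notch2 probe sets bend in opposite directions.

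The arrays fell into 3 groups with the same recorded hybridize date and time, taken here as fluidics runs (the wash and stain steps). Each run held 4 arrays and all zones. Within every run all 10 genes were higher in zone III than in zone II. Within every run 9 were higher in zone III than in zone I, and Notch2 gave 0.20, −0.27 and 0.08. From zone I to II 6 genes were lower in each run, and the 4 with mixed signs were Jag2, Dll1, Dll4 and Hey1. The counts of 10, 9 and 6 follow from the lack of overlap between arrays given above. They would hold for any split into runs, so they are no separate check of a run effect. Jag2 gave 0.14 from zone II to III in the first run against 1.41 and 1.33 in the others. A control for RNA quality moved with the zones, as the 3′/5′ signal ratio of Gapdh was 1.98 to 2.28 on zone III arrays and 1.25 to 1.76 on the others, while that of actin was 1.70 to 2.02 on zone III arrays and 2.09 to 3.23 on the others. Their part in the zone III results was not tested.

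Of 51 other genes of the pathway, 48 have a probe set named by that symbol alone and 39 passed the filter, 2 of them (Lfng and Hey2) through zone III alone. From zone I to II 13 of the 39 fell, 3 rose and 23 did not pass, with a median log2 difference of −0.39. From zone II to III 22 rose, 5 fell and 12 did not pass, with a median of 0.53, and without Lfng and Hey2 20 of 37 rose. Zone III was higher than zone I for 15 and lower for 5, and 19 did not pass, with a median of 0.20. Of all 11807 genes, 25.4% fell and 1893 rose from zone I to II, and 30.8% rose and 22.7% fell from II to III. Between I and III 21.6% rose and 21.7% fell. The counts here and in the lists below are to be read beside these shares.

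Of the list of other Hes and Hey genes, which also held Bhlhe40 and Bhlhe41, 4 passed the filter. Hey2 was among them through zone III alone, so that its rise was fixed by the filter. The other 3, Heyl, Bhlhe40 and Hes6, were all higher in zone III than in zone II (3 of 3) and did not pass from I to II, while Hes2, Hes3, Hes5, Hes7 and Bhlhe41 did not pass the filter. Bhlhe40 and Bhlhe41 are neither Hes nor Hey genes, and the part of Notch signalling in these rises was not tested. Heyl, a close relative of Hey1, read 53.6 ± 14.4, 55.3 ± 17.9 and 283 ± 31.6 (SD, n = 4 arrays), a log2 rise of 2.41 ± 0.25 from zone II to III (adjusted p = 6.1e-06, limma). Hey2, another relative, stood at 6.65 ± 1.07 and 8.13 ± 2.71 in zones I and II and at 81.4 ± 8.49 in zone III. On the trafficking list Nrarp, an inhibitor that Notch signalling switches on, read 200 ± 49.7, 74.8 ± 37.8 and 525 ± 58.2. Its log2 differences were −1.50 ± 0.27 from zone I to II (adjusted p = 0.00106, limma) and 2.92 ± 0.27 from II to III (adjusted p = 2.9e-06).

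Of 13 measured genes of receptor and ligand trafficking, 5 fell and none rose in going from zone I to II, and 7 rose and none fell in going from II to III. Besides Nrarp these were led by Dtx4, a ubiquitin ligase of the Deltex family, which went from 141 ± 24.8 to 70.8 ± 14.3 and 269 ± 37.0 (adjusted p = 7.6e-04 and 1.9e-06, limma), and by Numb, an inhibitor of Notch, with −0.72 ± 0.14 and 1.13 ± 0.14 (adjusted p = 0.00152 and 2.5e-05, limma). Of 7 measured genes of the nuclear complex, 3 fell and 1 rose from zone I to II, and 6 rose and 1 fell from II to III. Rbpj, the DNA-binding protein of the pathway, went from 589 ± 39.4 to 316 ± 26.8 and back to 519 ± 31.0, log2 differences of −0.90 ± 0.10 and 0.72 ± 0.10 (adjusted p = 3.3e-05 and 1.0e-04, limma). Ep300, a coactivator with acetyltransferase activity, rose from 155 ± 35.8 in zone II to 349 ± 30.8 in zone III (adjusted p = 3.7e-05, limma), and Snw1, a cofactor of RBPJ and of splicing, fell by 0.48 ± 0.10 (adjusted p = 0.00135).

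Of 8 measured genes of receptor cleavage, 3 rose from zone II to III, 1 fell and 4 did not pass, against 30.8% of all genes that rose and 22.7% that fell. The 3 that rose were Psen2, a catalytic subunit of gamma-secretase (1.25 ± 0.18, limma adjusted p = 1.0e-04), and the shedding proteases Adam10 (1.22 ± 0.15, adjusted p = 2.2e-05) and Adam17 (1.13 ± 0.17, adjusted p = 1.4e-04). Psenen, another subunit of gamma-secretase, went the other way, with 0.40 ± 0.10 from zone I to II and −0.28 ± 0.10 from II to III (adjusted p = 0.00866 and 0.0362, limma). Of 5 genes of receptor glycosylation, 2 fell from zone I to II, and from II to III 2 rose, Lfng being 1 of them, and 1 fell. Mfng, a Fringe enzyme that tunes which ligand a receptor answers to, gave −0.94 ± 0.24 and 1.85 ± 0.24 (adjusted p = 0.00927 and 4.4e-05, limma). Lfng, another Fringe, read 40.7 ± 22.2, 30.8 ± 18.6 and 88.0 ± 12.7 and passed the filter through zone III alone, and Poglut1, which adds glucose to the receptor, fell at both steps (−0.56 ± 0.11 and −0.37 ± 0.11, limma adjusted p = 0.00204 and 0.0166).

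Both measured non-canonical ligands fell from zone II to III. Dlk1, a Delta-like protein without the domain that binds Notch receptors in the classical ligands, fell at both steps, from 2646 ± 583 to 953 ± 235 and 306 ± 78.4, or by 3.12 ± 0.24 on the log2 scale between zones I and III (adjusted p = 8.6e-07, limma). Dlk2, its relative, rose from 38.2 ± 8.04 to 138 ± 36.2 and fell to 50.6 ± 8.26 (adjusted p = 3.4e-05 and 1.3e-04, limma). Dll3 and Dner did not pass the filter.

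**Figure D4:**
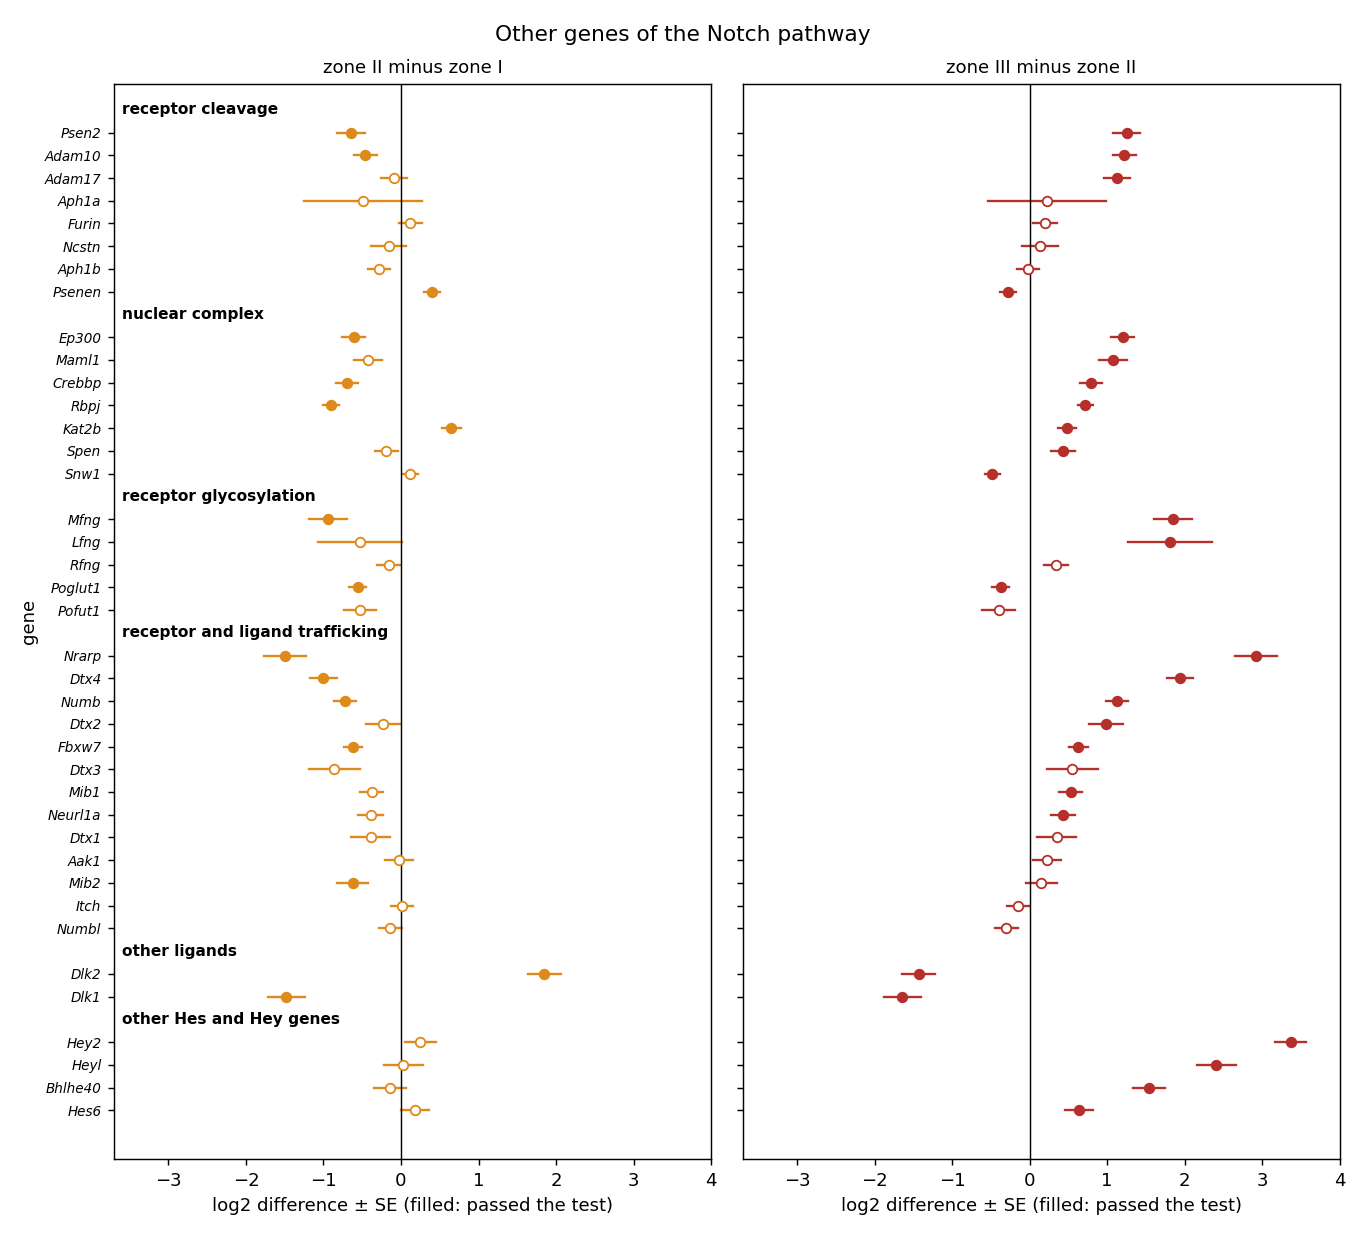
Log2 differences ± SE for the 39 other pathway genes that passed the filter, grouped by role, from zone I to II (left, orange) and from zone II to III (right, red), with filled dots where the test was passed. On the right 22 filled dots lie above 0 and 5 below, and the lowest of these are Dlk1 and Dlk2 at −1.64 and −1.43.

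Markers of several cell types that carry Notch genes moved between the zones as well. For the marker counts, the shares of all genes were 25.4% falling from zone I to II and 30.8% rising from II to III. All 18 endothelial markers passed the filter and none stayed under 50 on all arrays. Of these 17 fell from zone I to II (median log2 difference −1.60), 17 rose from II to III (3.10) and 15 were higher in zone III than in zone I. Pecam1, Flt1 and Tie1 had passed the filter through zone III alone, and of the other 15 markers 14 rose from II to III and 13 were higher in zone III than in zone I. Their summed signal was 2375 to 3626 over the arrays of zone I, 1109 to 1846 in zone II and 6358 to 7083 in zone III, without overlap. Cd34 read 354 ± 109, 84.0 ± 57.1 and 741 ± 72.0, while Erg, a transcription factor of endothelium and cartilage, did not pass in any comparison (507 ± 36.8, 480 ± 46.5 and 544 ± 22.4).

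Mural cell markers were mixed. Of 8 that passed the filter, 5 fell from zone I to II, and from II to III 4 rose and 2 fell, and 1 of those that fell from I to II, Tagln, had passed the filter through zone I alone. Pdgfrb, the receptor that pericytes need, read 230 ± 44.3, 72.3 ± 25.9 and 1501 ± 83.7, and Cspg4, the proteoglycan NG2, which cartilage expresses too, read 933 ± 220, 963 ± 239 and 442 ± 47.7. Myh11, the myosin of mature smooth muscle, was the marker under 50 on all arrays. Their summed signal was 2192 to 3394, 1763 to 2289 and 3100 to 3450 in zones I, II and III.

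Most osteoclast, macrophage and osteoblast marker transcripts rose from zone II to III. Of 12 osteoclast markers 11 did so, but 5 of the 12 (Ocstamp, Dcstamp, Calcr, Oscar and Atp6v0d2) had passed the filter through zone III alone, and 6 of the remaining 7 rose (summed signal 1062 to 1240, 1006 to 2169 and 13848 to 16527 in the 3 zones), and of 9 measured macrophage markers all 9 rose (1312 to 2287, 681 to 1098 and 4946 to 5968). Of 9 osteoblast markers 6 had risen from zone I to II and 7 rose from II to III, 1 of which, Mepe, had passed through zone III alone (4712 to 6292, 7480 to 10703 and 15376 to 17801). Col1a1, Col1a2 and Mepe did not pass from zone I to II (−0.54, −0.29 and 0.31). Ibsp, which the authors also name for late hypertrophic chondrocytes, went from 54.3 ± 34.4 to 3362 ± 557 there. From zone II to III all 9 early chondrocyte markers fell (20235 to 25666, 29576 to 31769 and 9469 to 11735). The perichondrium and fibrous tissue list followed the order II, III, I, since all 9 of its genes fell from zone I to II and 8 rose from II to III (10963 to 14295, 2828 to 5010 and 7221 to 8910). Of the hypertrophic chondrocyte markers 5 of 6 rose from zone I to II, and from II to III 2 rose and 3 fell (665 to 870, 10661 to 12754 and 9155 to 10907). A negative median from zone I to II with a median of over 1 from II to III, as for the Notch genes, was seen for the endothelial, macrophage and perichondrial lists and for the 2 measured erythroid markers. The part of these cell types in the Notch values was not tested.

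From zone II to III no skeletal muscle marker of 7 rose and 1 fell (438 to 2188, 229 to 901 and 258 to 672), 1 of 2 measured epidermis markers rose (160 to 198, 146 to 189 and 181 to 228), 1 of 2 erythroid markers rose (151 to 281, 63.1 to 388 and 262 to 435), and of 2 nerve markers 1 rose and 1 fell (377 to 406, 180 to 280 and 143 to 230). Markers under 50 on all arrays numbered 1 for muscle, 3 for epidermis, 2 for erythroid cells and 1 for nerve, and of the markers counted 4 of muscle and 1 of nerve had passed the filter through zone I alone and 1 of epidermis through zone III alone.

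**Figure D5:**
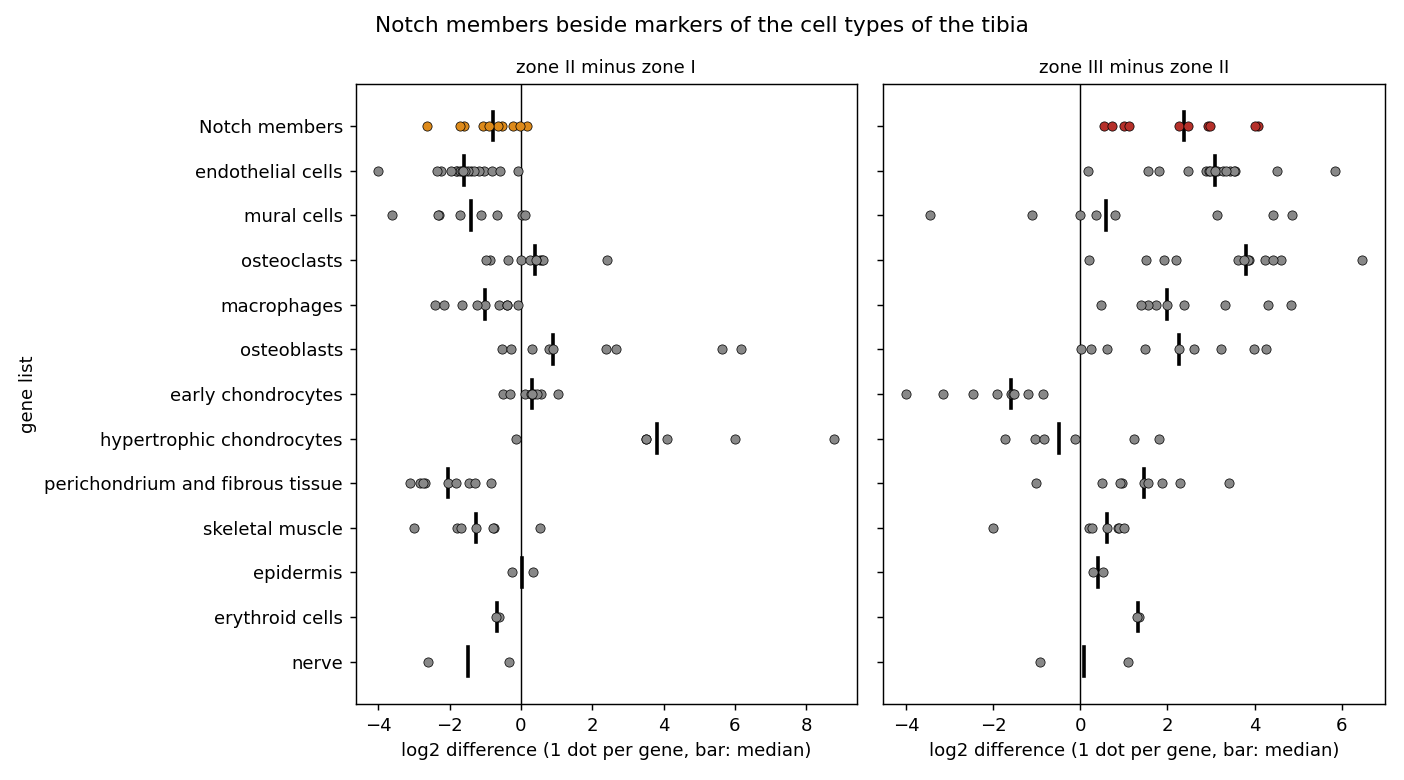
Log2 differences of the 10 Notch genes (coloured) and of the measured markers of 12 cell types or tissues (grey), 1 dot per gene with a bar at the median, from zone I to II (left) and from zone II to III (right). The Notch genes have medians of −0.78 and 2.38, and the endothelial markers have medians of −1.60 and 3.10, the latter with 3 markers that passed the filter through zone III alone.

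As a description, the genes whose log2 signal ran most like that of each Notch gene over the 12 arrays were ranked by Pearson correlation among 11806 others. Most of such a correlation is set by the difference between the 3 zones, and arrays of a zone are not independent of each other in this respect. Jag1 ran most like Nr2f2, a transcription factor of veins (r = 0.99), Sox17, a transcription factor of arterial endothelium, and Kcnj8, a potassium channel of mural cells (both 0.98). Hey1 ran most like Flt4, a receptor of lymphatic and growing vessels, the leukocyte receptor Gpr183 and its own relative Heyl (all 0.99). Notch3 ran most like Adcy7, an adenylyl cyclase, Myct1 and Chst2, and Notch4 like Cdc42ep2 and Arhgef15 (all 0.99), and Parp12 (0.98). Sox17 is on the endothelial list and Kcnj8 on the mural list used above.

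For Notch1 the most alike genes were Wipi2, Serpinf1 and Sirpa (0.99), and for Hes1 they were Stat6, Mllt6 and H2-D1 (0.99). Dll1 ran most like Asb2 (0.99), Kctd20 and Selplg (0.98). The genes with small ranges had lower values, with Agpat3, Bach2 and Rai1 for Notch2 (0.95), Casp1 (0.95), Clec4a3 and the endothelial receptor Tek (0.93) for Jag2, and Shank3, Gmip (0.94) and Tes (0.93) for Dll4. Among the 10 genes themselves, Notch1 and Hes1 gave r = 0.97, and Notch3 gave 0.96 with both Notch1 and Jag1. Notch3 with Hes1 and Dll1 with Hey1 gave 0.95, and the lowest value was 0.40 for Notch2 and Dll1.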

How the data were processed

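The values were signal intensities as deposited by the authors, 1 per probe set and array, scaled by them to a common trimmed mean of 150.0 (2% left out at each end). The methods name GCRMA and RMA and the submitters' processing notes name RMA. The RMA run in the methods used quantile normalization, while the array medians here differ (32.4 to 43.3) and values go down to 0.0121. Which algorithm gave the values was not settled, so how background was treated in dim probe sets is unknown. The deposited wash and scan records were used for the fluidics run of each array and for nothing else. Arrays with the same Hybridize Date entry were taken as 1 run.

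Zones and letters come from the sample titles, and 0 columns had no sample. The log2 of each signal was used without an offset, and a probe set stayed in when any zone mean reached 50 (22255 of 45101, with 64 controls left out). Genes were named by the platform annotation, through the 34958 probe sets with 1 symbol (932 have several and 9211 none), and the probe set with the highest mean log2 signal stood for a gene. limma 3.58.1 in R 4.3.3 fitted 3 zone means on all 12 arrays (lmFit, eBayes) and compared zones in pairs. P-values were adjusted by Benjamini-Hochberg over all kept probe sets, 0.05 on the adjusted scale was the threshold for a call, and p-values measure the spread between the arrays of a zone. The fit was tested on simulated data with known changes. The members, gene lists and naming rules were chosen with earlier results of these data known. All 10 members are named, other pathway genes where called, up to 4 per list and direction by size, and the 3 genes most correlated with each member.

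Letters A to D recur in every zone, and their deviations from the zone means were compared. Between zones I and III all 4 same-letter correlations were over 0.1 (0.14 to 0.19), which met the criterion for pairing, and over the 12 same-letter pairs of all zones they ran from −0.13 to 0.26 with 8 over 0.1. Pairs of different letters ran from −0.30 to 0.23, so that the letters are not set apart by this check. The replicate letter was used as a block in an alternative fit. Other alternatives were no filter or a floor of 100, quantile normalization, centring on medians or on 41 ribosomal protein genes, log2 of the signal plus 16, a fit on just the 8 arrays compared, robust estimation with a mean-variance trend, the fluidics run as a block, the median over probe sets of 1 gene, a 1.5-fold threshold, and leaving out each array in turn.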

Additional observations from a re-analysis of the deposited data

Results flagged for a closer look

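Among 30 groups of 4 arrays (10 genes in 3 zones), 2 held an array far from its group, where the gap to the nearest other array divided by the range exceeded Dixon's 95% critical value. Chance flags about 1 in 20 groups. Notch1 read 119 on array D of zone I against 196 to 213 on the others (gap over range 0.86), and without that array its log2 difference was −1.26 from zone I to II and 1.01 between I and III. Hey1 read 394 on array D of zone III against 521 to 533 on the others (0.92), and without that array it rose by 3.08 from zone II to III and by 3.06 between I and III.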

How the results depend on the processing

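Of the 30 differences, 25 passed the test, and over 571 alternative values of these 539 kept direction and call, 32 lost the call and 0 turned direction. Among these values the rises from zone II to III kept their calls wherever they were tested except for Notch2, which lost it with median centring and on the median of its probe sets. The 1.5-fold threshold is not among these values. Differences that passed the test but lay under it were the fall (1.43-fold) and rise (1.46-fold) of Notch2. The rise of Dll4 between I and III (1.42-fold) lay under it too. The number of genes that fell from zone I to II was 7, against 3 on the median of the probe sets of a gene, where dim probe sets enter, and 5 to 8 in the other alternatives. Notch4 lost its fall in 6 alternatives (limma, adjusted p = 0.0536 to 0.0977), Jag2 its fall in 10 and Dll4 its rise between I and III in 9, and the cause was not tested. The 5 differences that had not passed gained a call in 3 of 113 alternatives and turned sign in 10. The turned values were −0.13 for Dll1 from zone I to II with ribosomal centring, 0.14 and 0.16 for Hey1 from I to II with quantile normalization and median centring (−0.19 to 0.19 without 1 array), and −0.03 and −0.05 for Notch2 between I and III with median centring and the median of the probe sets (−0.05 to 0.11 without 1 array). With the replicate letter as a block 7 genes fell from zone I to II, 10 rose from II to III and 8 rose between I and III, and the pairing changed no call of the 10 genes. A floor of 100 left 8 of the 10 genes, of which 8 rose from II to III. Ribosomal centring moved the median of all genes to −0.39, 0.51 and 0.11 in the 3 comparisons and median centring to 0.10, −0.16 and −0.07. Both centrings shift every gene of an array by the same amount. They therefore cannot change where the 10 genes lie relative to that median. With ribosomal centring 24 pathway genes fell and 1 rose from zone I to II, against 13 and 3, and 2 rather than 5 fell from II to III, where median centring gave 8. Zone II means were under 50 for Notch4, Jag1, Jag2 and Dll4. With 4 arrays per zone, the sizes of their changes depend on the background. With 16 added to every signal, the rises from zone II to III were 0.78 for Jag2 against 1.01, and 0.57 for Dll4 against 0.73.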
